A study of Bos taurus with 44 samples.

Results

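The genes described here encode 7 chemokine ligands, CCL2, CCL3, CCL5, CCL8, CCL20, CXCL8 and XCL1, measured in blood mononuclear cells of Holstein cows. They were chosen as the genes of a fixed list of ligand symbols for which spots of the array carry that symbol alone in the platform annotation. They make up 7 of the 141 named genes and 72 of the 1680 spots, with 16 spots each for CCL2 and CCL8 and 8 for each of the others. The rule reads gene symbols and no measured value, but the list was chosen with earlier results of these data known.

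Chemokines are small secreted proteins that guide leukocytes by binding G protein-coupled receptors on the cell surface, and their family names record how the first cysteines of the mature protein are spaced. CCL2 and CCL8 attract monocytes, CCL3 and CCL5 attract monocytes and activated T cells, CCL20 attracts cells that carry the receptor CCR6, CXCL8 (interleukin 8) attracts neutrophils, and XCL1 (lymphotactin) attracts cells that carry XCR1. In blood, stimulated monocytes are a known source of CCL2, CCL3, CCL20 and CXCL8, and T cells and natural killer cells are known sources of CCL5 and XCL1. In the RefSeq table of bovine genes (assembly ARS-UCD2.0) all 7 were matched by Entrez identifier. CCL2, CCL3, CCL5 and CCL8 lie on the same chromosome. CCL2 and CCL8 have 1 protein-coding gene between them, CCL11, while XCL1 lies next to XCL2 and CCL3 next to loci without a gene name, so a cDNA spot may also bind transcripts of related neighbours.

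The cows had been immunized and were bled on day 6, their mononuclear cells were separated on a Percoll gradient without further culture, and RNA was amplified in 1 round. Each of 44 two-colour arrays set 1 cow against the same reference RNA, a standard made from blood mononuclear cells too, in the dyes Alexa647 and Alexa555. The labels class cows as high or low for antibody response (Ab) or for cell-mediated response (DTH) and yield 11 cows: 1 cow high for both traits, called the shared cow, 2 further high-Ab, 2 further high-DTH, 3 low-Ab and 3 low-DTH cows. The number of arrays was 4 per cow, but 5 in high-DTH cow 2 and 3 in low-DTH cow 3. No ages are given, and the antigens are not named. No unimmunized cows and no samples taken before immunization were analysed here, and the labels do not state whether a cow number used in several groups means the same animal, so cows of different groups were taken as different animals. Values are log ratios, read as log2 of cow over standard, although neither the base nor the direction is stated. If the base is 2, a difference of 1 is a factor of 2, and if the ratios ran the other way all directions below would turn together.

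A ratio against a standard of the same cell type gives no absolute level, so the presence of a cell type cannot be read from these values. Of the markers listed for each type, the array measured 6 of 7 T cell, 4 of 8 B cell, 4 of 9 monocyte, 1 of 6 natural killer cell, 2 of 6 neutrophil, 0 of 3 platelet and 1 of 1 gamma delta T cell genes. For FCGR3A, the natural killer cell gene, high minus low was −0.23 ± 0.55 (SE) for Ab and −0.21 ± 0.31 for DTH. For CD163L1, the gamma delta T cell gene, it was 0.76 ± 0.35 and 0.45 ± 0.37. Low-Ab minus low-DTH was −0.01 ± 0.47 for FCGR3A and −0.38 ± 0.34 for CD163L1, and groups overlapped each time. In such bulk samples fewer cells of a type and less RNA per cell cannot be told apart. The sign of 3 arrays is unsettled: low-Ab cow 1 holds 2 of them (arrays 1 and 2) and low-DTH cow 3 holds its array 3. Their mean correlation with arrays of other cows was −0.23 to −0.20, while the lowest among the remaining 41 was 0.05. Among these 41, arrays 2 and 3 of high-DTH cow 3 had r = −0.24 with each other, and all 41 were taken as deposited. Values are given as deposited. For the chemokine genes, most results that rest on these cows are also given with the 3 arrays turned. Means, differences and overlaps of cell markers, receptors and inducers are given as deposited only. For the median gene of the 141 the SD over spots was 0.13, that over a cow's arrays 0.18 and that over the 11 cows 0.15.

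The chemokine genes differed in how far they spread between cows. CXCL8 had an SD of 0.81 over the 11 cows, rank 1 of the 141 genes, and CCL3 had 0.66, rank 4. The other 5 had SDs between 0.11 for CCL20 (rank 87) and 0.31 for CCL5 (rank 27). Spots and arrays of CXCL8 and CCL3 mostly agreed far more closely than the cows did, with a median SD of 0.07 and 0.09 between spots and of 0.28 and 0.17 between arrays. In low-DTH cow 3, as deposited, the SD between arrays reached 4.73 for CXCL8 and 2.75 for CCL3.

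**Figure D1:**
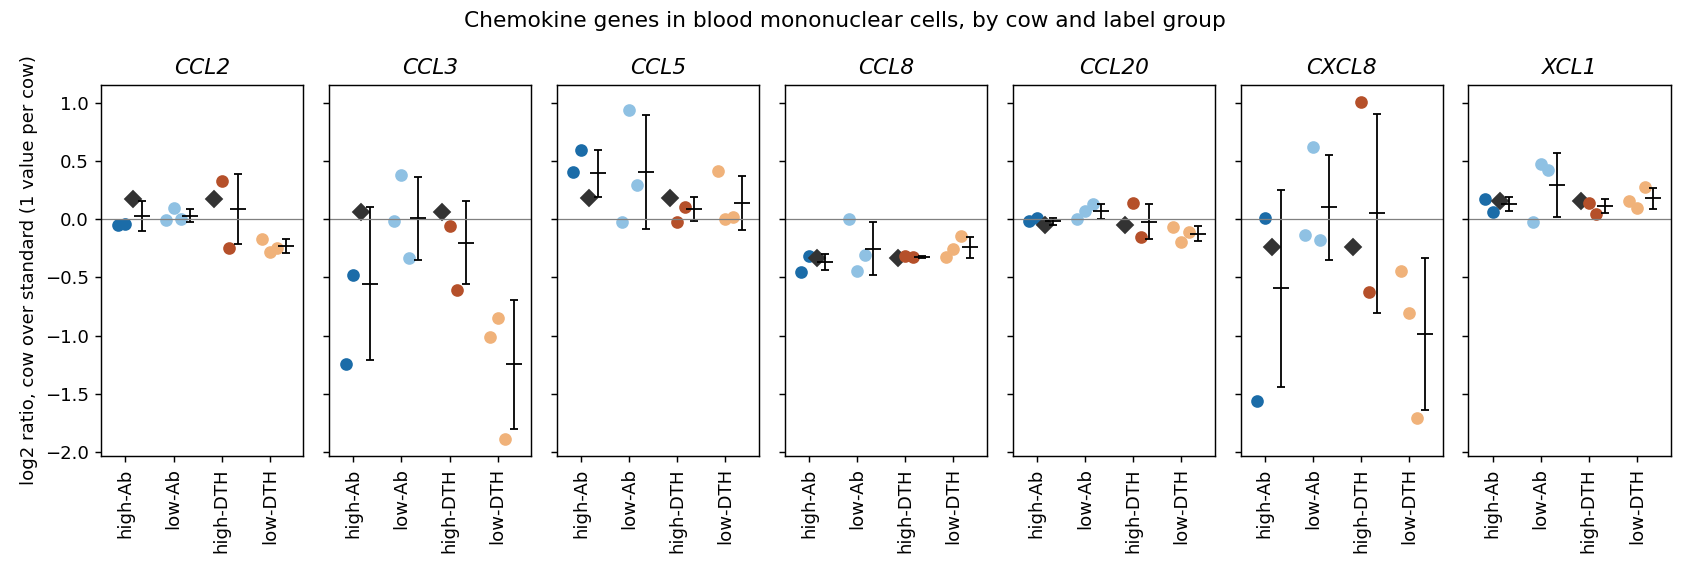
Log2 ratio of cow over standard for each of the 7 chemokine genes, 1 value per cow, by label group. The shared cow is the black diamond drawn in both high groups, and bars give the mean and SD over 3 cows. CCL3 spans −1.89 to 0.38 and CXCL8 −1.71 to 1.01, while CCL20 stays between −0.20 and 0.14.

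CCL3, the macrophage inflammatory protein 1 alpha, stood at 0.07 in the shared cow, at −1.25 and −0.48 in high-Ab cows 2 and 3, and at −0.06 and −0.61 in high-DTH cows 2 and 3. It stood at −0.02, 0.38 and −0.33 in low-Ab cows 1 to 3 and at −1.01, −0.85 and −1.89 in low-DTH cows 1 to 3. The 3 low-DTH cows and high-Ab cow 2 were thus the 4 lowest. By group the order of means ran from low-Ab (0.01 ± 0.36, SD, n = 3 cows here and below) over high-DTH (−0.20 ± 0.36) and high-Ab (−0.55 ± 0.66) to low-DTH (−1.25 ± 0.56). Only the last step, a gap of 0.70 against a larger SD of 0.66, was wider than the spread of either neighbour.

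CXCL8, the neutrophil attractant, stood at −0.23 in the shared cow, at −1.56 and 0.01 in high-Ab cows 2 and 3, and at 1.01 and −0.62 in high-DTH cows 2 and 3. It stood at −0.13, 0.63 and −0.18 in the low-Ab cows and at −0.44, −0.81 and −1.71 in the low-DTH cows. Cows of the same group could lie far apart, as the 2 further high-Ab and the 2 further high-DTH cows did. Group means ran from low-Ab (0.11 ± 0.45) and high-DTH (0.05 ± 0.85) to high-Ab (−0.59 ± 0.85) and low-DTH (−0.99 ± 0.66), and no gap between neighbours exceeded the larger SD.

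In some cows the single arrays agreed closely, although technical replicates cannot tell a cow from its blood sample or RNA preparation. High-Ab cow 2 had CXCL8 at −1.71, −1.50, −1.55 and −1.48 on its 4 arrays and CCL3 at −1.15, −1.17, −1.40 and −1.27. High-DTH cow 2 had CXCL8 at 0.94, 1.23, 0.84, 0.89 and 1.29. These values lay on the same side of 0 with both dyes and on early and late arrays. Arrays of some other cows agreed less. High-DTH cow 3 had CXCL8 at −0.79, −0.04, −0.98 and −0.69, and high-DTH cow 2 had CCL3 at −0.60 on array 4 against 0.02 to 0.09 on its other arrays. Low-DTH cow 3 stood furthest apart, with CCL3 at −3.12, −3.01 and 1.70 and CXCL8 at −3.86, −3.61 and 4.46 on arrays 1, 2 and 3. Its array 3 is one of unsettled sign, and the opposite arrays pull its averages towards 0, so that turning it moves CCL3 from −1.89 to −2.74 and CXCL8 from −1.71 to −3.95. Low-Ab cow 1 had CXCL8 at −0.89, −0.51, 0.23 and 0.63, and turning its arrays 1 and 2 moves CXCL8 from −0.13 to 0.56 and leaves CCL3 near 0 (−0.03).

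**Figure D2:**
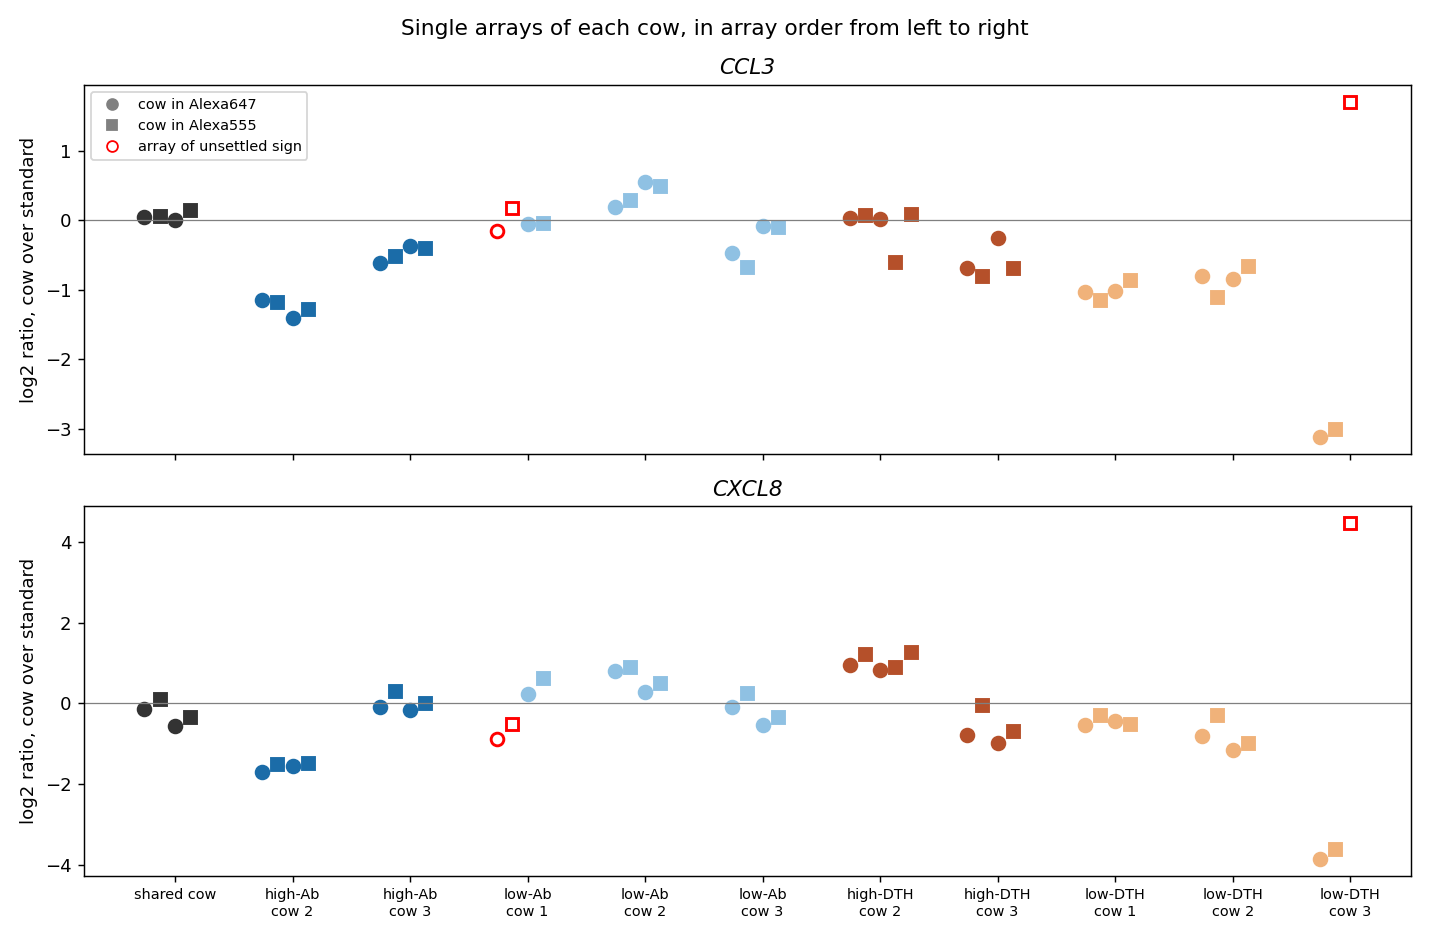
Log2 ratio of CCL3 (top) and CXCL8 (bottom) on each array of the 11 cows, in array order, with circles for the cow in Alexa647, squares for Alexa555 and open red symbols for the 3 arrays of unsettled sign. The arrays of low-DTH cow 3 lie farthest apart, with array 3 at 1.70 and 4.46 against values below −3 on arrays 1 and 2, and those of low-Ab cow 1 lie on both sides of 0 for CXCL8, from −0.89 to 0.63.

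CCL2, a ligand of the monocyte receptor CCR2, stood at 0.18 in the shared cow, −0.05 and −0.04 in high-Ab cows 2 and 3, and 0.33 and −0.25 in high-DTH cows 2 and 3. It stood at −0.01, 0.10 and 0.0042 in the low-Ab and at −0.17, −0.28 and −0.24 in the low-DTH cows. All 3 low-DTH cows were below every other cow but high-DTH cow 3. CCL20, the ligand of CCR6, kept to a narrower range of −0.20 to 0.14, and was again below 0 in 3 of 3 low-DTH cows (−0.07, −0.20 and −0.11) and above 0 in 3 of 3 low-Ab cows (0.0048, 0.07 and 0.13). Turning the 3 arrays put CCL20 of low-Ab cow 1 at −0.04, which leaves 2 of 3 above 0, and that of low-DTH cow 3 at −0.28, while CCL2 stood at 0.11 and −0.36 in these cows. Group means of CCL2 were 0.09 ± 0.30 in high-DTH, 0.03 ± 0.06 in low-Ab, 0.03 ± 0.13 in high-Ab and −0.23 ± 0.06 in low-DTH cows. Those of CCL20 were 0.07 ± 0.06 in low-Ab, −0.02 ± 0.03 in high-Ab, −0.02 ± 0.15 in high-DTH and, lowest, −0.13 ± 0.06 in low-DTH cows. Among neighbours in these orders, the gap exceeded the larger SD between high-Ab and low-DTH cows for CCL2 (0.26 against 0.13) and between low-Ab and high-Ab cows for CCL20 (0.09 against 0.06).

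CCL8, a second monocyte attractant, was lower than the standard in almost every measurement. As deposited its ratio was below 0 in 10 of 11 cows, from −0.45 in high-Ab cow 2 and low-Ab cow 2 to −0.14 in low-DTH cow 3, with low-Ab cow 1 at 0.0015. It was below 0 on each of the 41 arrays other than the 3 of unsettled sign, between −0.85 and −0.12. It was above 0 on each of those 3, at 0.38 and 0.32 on arrays 1 and 2 of low-Ab cow 1 and at 0.55 on array 3 of low-DTH cow 3. With those turned it was below 0 on 44 of 44 arrays, and both cows moved into the range of the rest, to −0.35 and −0.42. Its group means lay between −0.37 ± 0.07 in high-Ab and −0.24 ± 0.09 in low-DTH cows, with no gap between neighbouring groups beyond their SD. All arrays share 1 standard, so a side of 0 common to most cows cannot be told apart from the level in that standard.

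CCL5 and XCL1 lay mostly on the other side of 0, where the same limit of the standard holds. Without the 3 arrays of unsettled sign, XCL1 was above 0 on 38 of 41 arrays and CCL5 on 33. As deposited XCL1 was above 0 in 10 of 11 cows and CCL5 in 8 of 11. XCL1 was highest in low-Ab cows 2 and 3 (0.47 and 0.43) and lay between −0.02 and 0.28 in the other 9. CCL5 was highest in low-Ab cow 2 (0.94) and high-Ab cow 3 (0.59), and lowest in high-DTH cow 2 and low-Ab cow 1 (−0.02 in each). On arrays 1 to 4 of low-Ab cow 1, CCL5 read −0.68, −0.61, 0.76 and 0.45 and XCL1 read −0.33, −0.41, 0.23 and 0.41. With arrays 1 and 2 turned, that cow stood at 0.62 for CCL5 and 0.35 for XCL1. Mean CCL5 was 0.41 ± 0.49 in low-Ab, 0.39 ± 0.20 in high-Ab, 0.14 ± 0.23 in low-DTH and 0.09 ± 0.10 in high-DTH cows, and the gap of 0.25 between high-Ab and low-DTH cows exceeded the larger SD of 0.23. Mean XCL1 was 0.29 ± 0.28, 0.13 ± 0.06, 0.18 ± 0.09 and 0.12 ± 0.06 in these groups, where no gap between neighbours in the order exceeded the larger SD.

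The comparison of high-DTH with low-DTH cows asked whether the chemokine genes differ with the cell-mediated response. CCL3 and CXCL8 had higher ratios in the 3 high-DTH than in the 3 low-DTH cows by 1.05 ± 0.32 (SE) and 1.04 ± 0.50, the widest and second widest difference of the 141 genes, and neither passed. The 95% intervals were 0.28 to 1.82 and −0.18 to 2.26, and the limma adjusted p was 0.494 and 0.576. CCL2 differed by 0.32 ± 0.16 (adjusted p by limma 0.576) and CCL20 by 0.10 ± 0.11, while CCL5 (−0.05 ± 0.14), CCL8 (−0.09 ± 0.09) and XCL1 (−0.06 ± 0.09) lay slightly below 0. In all 4 of 7 were higher and 3 lower, with a median of 0.10 against −0.03 over the 141 genes, of which 39.7% lay above 0.

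For CCL3 the lowest high-DTH cow (−0.61) lay above the highest low-DTH cow (−0.85), so the groups did not overlap, as for 8.51% of the 141 genes in that direction and 7.09% in the other. For the other 6 they overlapped. Limma called 0 of 565 features and none of the 7 genes (0% of all features), with 55 features (9.73%) at an unadjusted p under 0.05, CCL3 among them at p = 0.0153. With the 3 arrays turned, CCL3 stood at 1.33 ± 0.54 and CXCL8 at 1.78 ± 1.02, still without a call, while CCL8 came to 0.0063, on the other side of 0. Without low-DTH cow 3, CCL3 came to 0.73 and CXCL8 to 0.67, and without high-DTH cow 2 CXCL8 came to 0.56, CCL2 to 0.20 and CCL20 to 0.024. Without high-DTH cow 3 CCL2 came to 0.49 and CCL20 to 0.17. Over arrays 3 to 5 alone, where low-DTH cow 3 is represented by its array of unsettled sign, CCL3 read −0.18 and CXCL8 −1.08, and with that array turned they read 0.96 and 1.90.

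The mean of 6 T cell markers moved with the same groups, lying between 0.42 and 0.72 in high-DTH and between 0.02 and 0.40 in low-DTH ones. The 0.40 is that of low-DTH cow 3, with its array 3 as deposited. Of these markers 6 of 6 were higher, CD3D, CD3E and CD3G without overlap. The mean of the 4 monocyte markers overlapped, at −0.12 to −0.0055 and −0.23 to −0.01, with 3 of 4 higher. Among them TLR4 was higher and FCGR1A lower without overlap. The 4 B cell markers were all lower in high-DTH cows (median −0.28), with CD40 and CD72 without overlap. Their mean lay between −0.44 and 0.06 in high-DTH and between −0.03 and 0.53 in the low cows. Of the 141 genes 8.51% were higher and 7.09% lower in high-DTH cows without overlap. The part of cell makeup in the chemokine differences was not tested.

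**Figure D3:**
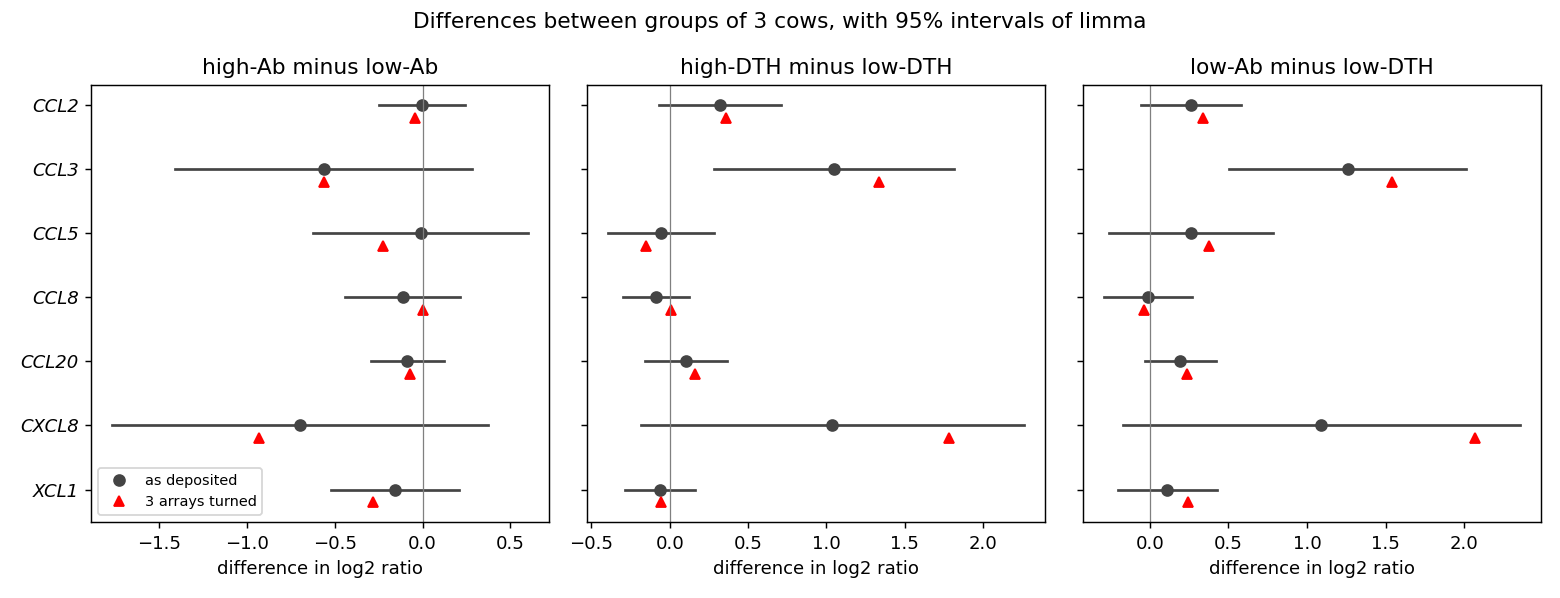
Difference in log2 ratio between groups of 3 cows for each chemokine gene in the Ab comparison, the DTH comparison and between the low groups. Black points and lines are the deposited values with limma's 95% interval, and red triangles give the value with the 3 arrays of unsettled sign turned. CCL3 is the only gene whose interval leaves out 0, in the DTH comparison and between the low groups.

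The low-Ab and low-DTH groups have no cow in common as grouped here, and setting them side by side showed the widest separation of chemokine genes. Here 6 of 7 genes had higher ratios in low-Ab cows, with a median difference of 0.26 against 0.01 over the 141 genes, of which 53.2% lay above 0. CCL3 differed by 1.26 ± 0.33 and CXCL8 by 1.09 ± 0.55, ranks 2 and 3 of 141, CCL2 by 0.26 ± 0.14 and CCL20 by 0.20 ± 0.10. These 4 genes had no overlap between the 3 low-Ab and 3 low-DTH cows, as for 8.51% of the 141 genes in that direction and 4.96% in the other. CCL5 (0.26 ± 0.23), XCL1 (0.11 ± 0.14) and CCL8 (−0.01 ± 0.12) overlapped.

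None of the 7 passed, against 0.535% of 561 features called and 7.84% at an unadjusted p under 0.05. The adjusted p of limma was 0.230 for CCL3 (unadjusted p = 0.00451, interval 0.51 to 2.01), 0.632 for CXCL8 and CCL20 and 0.669 for CCL2. With the 3 arrays turned XCL1 (0.25 ± 0.08) joined the genes without overlap, 5 of 7 where 13.5% of the 141 did so, and with these arrays left out the count was again 4, where 11.4% of 140 genes did so. With arrays turned, CCL3 came to 1.54 ± 0.49 and CXCL8 to 2.07 ± 0.93, and without low-DTH cow 3 they came to 0.94 and 0.73. CXCL8 turned to −0.84 over arrays 3 to 5 alone as deposited, and to 2.14 with the array of low-DTH cow 3 turned. Mean T cell markers were at −0.05 to 0.22 in low-Ab and 0.02 to 0.40 in low-DTH cows, and mean monocyte markers at −0.12 to −0.03 and −0.23 to −0.01. The 4 B cell markers were all lower in low-Ab cows (median −0.14, IGHM at −0.80 ± 0.56), with means of −0.41 to 0.05 and −0.03 to 0.53. Both neutrophil genes were higher, LTF by 0.60 ± 0.40 and CXCR2 by 0.01 ± 0.10, with means of 0.04 to 0.67 and −0.16 to 0.07. Whether any of these bears on the chemokine differences was not tested.

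The comparison of high-Ab with low-Ab cows asked the same of the antibody response, and no chemokine gene separated the groups. The widest differences were those of CXCL8 (−0.70 ± 0.44, interval −1.77 to 0.37) and CCL3 (−0.56 ± 0.35, interval −1.41 to 0.28), ranks 5 and 8 of 141, with a limma adjusted p of 0.880 each. As deposited 7 of 7 differences lay below 0, where 54.6% of the 141 genes did, but CCL2 (−0.0012 ± 0.10) and CCL5 (−0.01 ± 0.25) were at 0 within their error, both lay above 0 after quantile normalization (0.0035 and 0.05), and CCL8 (−0.11 ± 0.14) came to 0.0028 with the arrays turned. XCL1 stood at −0.16 ± 0.15 and CCL20 at −0.09 ± 0.09.

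The groups overlapped for 7 of 7 genes, whereas 4.96% of the 141 were higher and 5.67% lower in high-Ab cows without overlap, and limma called 0 of 562 features (0%), with 37 (6.58%) at an unadjusted p under 0.05. With the 3 arrays turned XCL1 came to −0.28 ± 0.08 and no longer overlapped, as for 7.8% of the 141 genes in that direction, with an adjusted p of 0.428 by limma. High-Ab cow 2 set the size of the widest differences: without it CXCL8 and CCL3 each came to −0.22. CCL3 came to −0.87 without the shared cow, and without low-Ab cow 2 CXCL8 came to −0.44. The mean of the 2 neutrophil genes lay between −0.83 and 0.16 in high-Ab and between 0.04 and 0.67 in low-Ab cows. LTF differed by −1.04 ± 0.54 and CXCR2 by −0.02 ± 0.10. The mean of T cell markers lay between 0.37 and 0.72 and between −0.05 and 0.22, with 5 of 6 higher in high-Ab cows. Monocyte markers were lower in 4 of 4, with means of −0.12 to −0.08 and −0.12 to −0.03. B cell markers were lower in 3 of 4 (median −0.04), with means of −0.44 to −0.06 and −0.41 to 0.05. The part of these cells in the chemokine values was not tested.

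CCL3 and CXCL8 thus lay on opposite sides of 0 in the traits, and the difference between the Ab and the DTH effect was tested in 1 fit of all 11 cows. The shared cow cancels from it. For CXCL8 it was −1.74 ± 0.71, rank 1 of 141, with an unadjusted p of 0.0390 and an adjusted p of 0.440 by limma. For CCL3 it was −1.61 ± 0.43, rank 3, with 0.00473 and 0.142. CCL2 (−0.32 ± 0.18) and CCL20 (−0.19 ± 0.13) ran the same way, and CCL5, CCL8 and XCL1 lay within 0.10 of 0. In all 6 of 7 lay below 0, as did 46.8% of the 141 genes, and none of the 7 passed, where 1.25% of 561 features did and 10.2% had an unadjusted p under 0.05. With the 3 arrays turned CCL3 stood at −1.89 ± 0.64 and CXCL8 at −2.71 ± 1.20, and over arrays 3 to 5 alone as deposited they read −0.50 and 0.27.

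The remaining pair of groups, without the shared cow, had 2 cows a side. High-Ab minus high-DTH cows gave −0.97 ± 0.68 for CXCL8, rank 1 of 141, and −0.53 ± 0.40 for CCL3, with overlap for both. These rested on single cows: without high-Ab cow 2 they came to −0.18 and −0.14, without high-DTH cow 2 to −0.15 and −0.25, without high-Ab cow 3 to −1.75 and −0.92 and without high-DTH cow 3 to −1.79 and −0.81. CCL5 was higher in both high-Ab cows (0.41 and 0.59) than in both high-DTH cows (−0.02 and 0.10), by 0.46 ± 0.28 (adjusted p = 0.544 by limma), a separation that 28.4% of the 141 genes share in that direction and 19.9% in the other. Of the 7 genes 3 lay above 0, as did 54.6% of the 141. With all 5 high against all 6 low cows 4 of the 7 differences lay above 0 (41.1% of the 141 genes), all between −0.12 and 0.16, with overlap for each, where 1.42% of genes were higher and 0% lower without overlap. Limma called 0 of 561 features in either comparison (0%), with 58 (10.3%) and 20 (3.57%) at an unadjusted p under 0.05.

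Across the 11 cows the ratios of CCL2, CCL3, CCL20 and CXCL8 ran in parallel. CCL2 enters here and below as the mean of 2 clones with r = 0.23 between them, and correlations of its single clones with other genes were not computed. The correlations are a description without a test, since all genes of a cow come from the same arrays and share the standard. CCL3 and CXCL8 had r = 0.87 (rho = 0.81), CCL2 and CCL20 0.81 (0.85), CCL2 and CXCL8 0.74 (0.77), CCL2 and CCL3 0.70 (0.77) and CCL20 and CXCL8 0.66 (0.81). The r of CCL3 and CXCL8 was 0.81 over the 10 cows other than low-DTH cow 3, and turning the 3 arrays gave 0.95. CCL5 and XCL1 formed a second pair (r = 0.54, rho = 0.45), and CCL8 ran against CCL5 (−0.65) and XCL1 (−0.44), also with the arrays turned (−0.59 and −0.45). Its r with CCL3 and CXCL8 changed sign with these arrays, from −0.14 to 0.23 and from −0.15 to 0.34, and its r with CCL2 and CCL20 moved from −0.23 to −0.03 and from −0.20 to −0.01. The median r was 0.26 over the 21 pairs, of which 15 were above 0, and 0.0085 over all 9870 pairs of named genes.

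**Figure D4:**
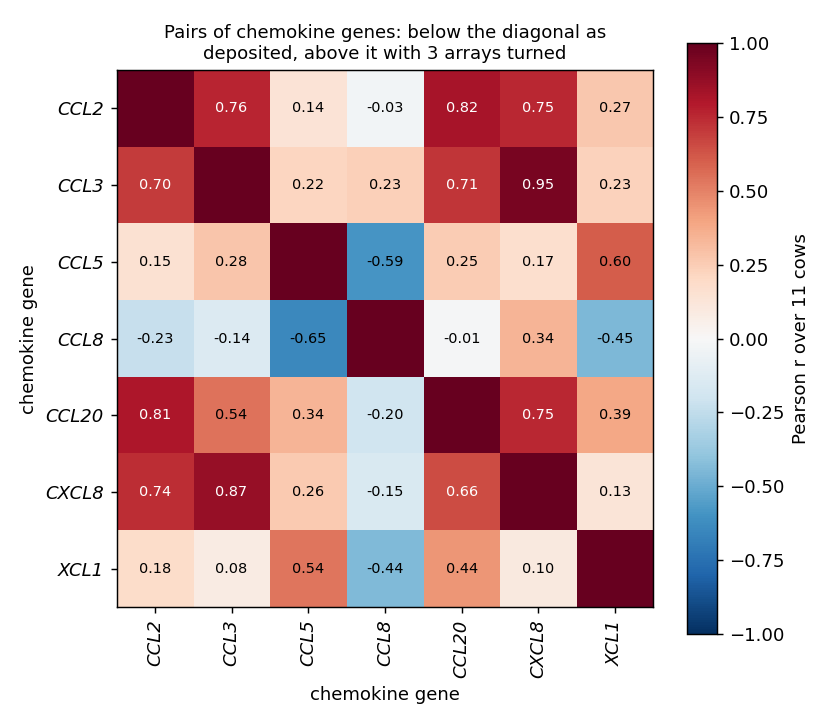
Pearson r over 11 cows for each pair of chemokine genes, as deposited below the diagonal and with the 3 arrays turned above it, coloured from −1 to 1. CCL2, CCL3, CCL20 and CXCL8 have r between 0.54 and 0.87 among themselves as deposited, CCL5 and XCL1 0.54, and CCL8 is below 0 with each of the other 6 as deposited but at 0.23 with CCL3 and 0.34 with CXCL8 once the arrays are turned.

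The genes on the array whose pattern was most like that of each ligand over the 11 cows divided in the same way. For CCL3 they were CXCL8, IL1B (r = 0.78, rho = 0.75) and IL1A (0.75, 0.73), which encode the inflammatory cytokines interleukin 1 beta and alpha, and for CXCL8 they were CCL3, CCL2 and IL1A (0.72, 0.64). For CCL2 they were IL1A (0.83, 0.78), CCL20 and CXCL8. For CCL20 they were CCL2, the costimulatory molecule CD86 (0.76, 0.76) and the receptor TGFBR1 (0.71, 0.63). With the 3 arrays turned, each of these had r of at least 0.75. Without the 2 cows farthest from the median of CCL3, low-DTH cow 3 and low-Ab cow 2, its r was 0.76 with CXCL8, 0.57 with IL1B and 0.83 with IL1A. For CCL2, without high-DTH cow 2 and low-DTH cow 2, r was 0.65 with IL1A, 0.65 with CCL20 and 0.60 with CXCL8. Without the same cows, CCL20 had 0.67 with CD86 and 0.78 with TGFBR1. For CXCL8, without low-DTH cow 3 and high-Ab cow 2, r was 0.70 with CCL3, 0.86 with CCL2 and 0.68 with IL1A.

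XCL1 was most like MIF, the macrophage migration inhibitory factor (r = 0.88, rho = 0.85), CD69, an early activation antigen of lymphocytes (0.81, 0.85), and CSF2, the granulocyte-macrophage growth factor (0.69, 0.62), and without low-Ab cows 2 and 3 these came to 0.73, 0.71 and 0.50. CCL5 was most like TXLNA (0.74, 0.65), IL2RA, the alpha chain of the interleukin 2 receptor (0.73, 0.70), and SDF1, an older symbol of the chemokine CXCL12 (0.66, 0.72). Without low-Ab cow 2 and high-Ab cow 3 the r of IL2RA was 0.30 and that of SDF1 0.39. The closest genes of CCL8 depended on the arrays of unsettled sign: NFATC3 (0.68), CASP4 (0.60) and IRF1 (0.53) had r = 0.01, −0.07 and 0.16 once the arrays were turned.

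The receptors and inducers listed beside the ligands were measured on the same arrays, and their differences are given as deposited. Of 7 chemokine receptors, CCR1, CCR3, CCR4, CCR7, CCR9, CXCR2 and CXCR4, 6 had higher ratios in high-DTH cows (median 0.11), where 39.7% of the 141 genes did, and 4 of them did so without overlap, where 8.51% of the 141 did. These 4 were CCR1, CCR3 (0.65 ± 0.20), CCR4 (0.38 ± 0.11) and CXCR4 (0.58 ± 0.12). In the Ab comparison 1 receptor was higher and 6 were lower (median −0.02), with overlap for each. Between the 2 high-Ab and 2 high-DTH cows without the shared cow 7 of 7 were lower in high-Ab cows (median −0.33). CCR1, CCR3, CCR4 and CXCR4 again had no overlap, where 19.9% of the 141 genes had none in that direction. Limma called 0 of the 7 in any comparison. CCR1, which binds CCL3 and CCL5, differed by 0.11 ± 0.08 in the DTH comparison, without overlap, and by −0.33 ± 0.11 between the further high-Ab and high-DTH cows (limma adjusted p = 0.302). CXCR2, which binds CXCL8, differed by 0.03 ± 0.10 and −0.05 ± 0.12 in these comparisons. Of 9 measured inducers and NF-kB subunits 8 were higher in low-Ab than in low-DTH cows, with a median of 0.05, where 53.2% of the 141 genes were higher. IL1B passed there at 1.33 ± 0.19 (adjusted p = 0.0416 by limma), where 0.535% of 561 features did. IL1B, IL1A (0.89 ± 0.20, adjusted p = 0.162 by limma) and IL6 (0.44 ± 0.11, adjusted p = 0.210 by limma) were the 3 without overlap. Of the 141 genes, 8.51% had no overlap in that direction. With 0 features called between the low groups under quantile normalization, with Alexa555 alone, over either array set alone, without high-Ab cow 2 or 3, or without any 1 of the 6 low cows, the IL1B call was lost under each of these. In the difference between the Ab and DTH effects IL1B and IL1A both passed, where 1.25% of 561 features did. IL1B stood at −1.63 ± 0.25 (limma adjusted p = 0.0393) and IL1A at −1.44 ± 0.26 (limma adjusted p = 0.0421). There 0 features were called with the 3 arrays turned or left out, under quantile normalization, with either dye or array set alone, or without the shared cow, high-Ab cow 2 or 3 or any 1 of the 6 low cows. In the DTH comparison IL1A (1.02 ± 0.23), IL1B (0.72 ± 0.22) and the lipopolysaccharide receptor TLR4 (0.15 ± 0.09) were the inducers without overlap. All were higher in high-DTH cows, where 8.51% of the 141 genes had no overlap in that direction. In the Ab comparison IL1B alone had no overlap, at −0.91 ± 0.20, where 5.67% of the 141 genes were lower without overlap.

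CCL2 and CCL8 were each printed from 2 clones of 8 spots, which gave a check of the probe. The clones of CCL8 followed each other with r = 0.74 over the 11 cows and 0.76 over the 44 arrays, and the first read higher, nearer to 0, in 10 of 11 cows, with gaps of up to 0.47. The clones of CCL2 followed each other less closely, with r = 0.23 over cows and 0.35 over arrays. Their widest gap was 0.69, in high-DTH cow 2, where the first clone read 0.68 and the second −0.01. In the DTH comparison both CCL2 clones were above 0 (0.40 ± 0.25 and 0.24 ± 0.15), and between low-Ab and low-DTH cows both were again (0.34 ± 0.23 and 0.19 ± 0.10). In the Ab comparison they lay on opposite sides (−0.12 ± 0.13 and 0.12 ± 0.14), so the value near 0 given for CCL2 there is a mean of clones that disagreed.

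**Figure D5:**
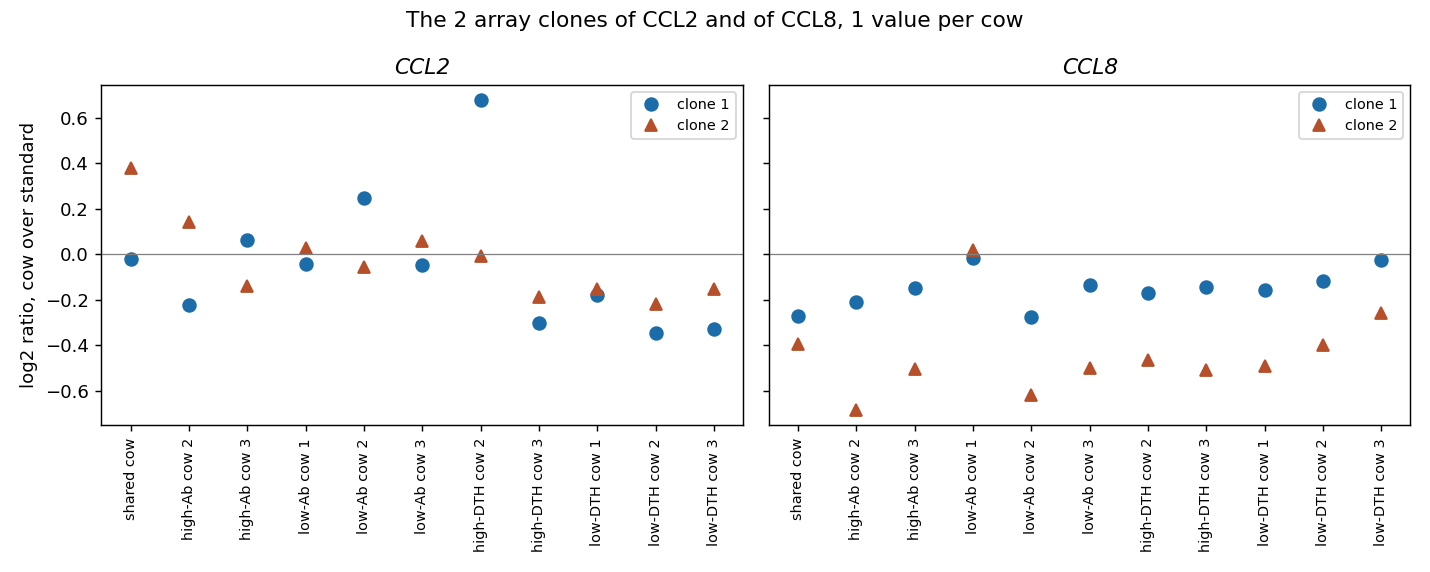
Log2 ratio of cow over standard for both clones of CCL2 and of CCL8 in each of the 11 cows, with clone 1 as blue circles and clone 2 as orange triangles. The clones of CCL8 run in parallel, with clone 1 nearer to 0 in 10 of 11 cows, and those of CCL2 are 0.69 apart in high-DTH cow 2.

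The ratios also moved with dye and with array number. As deposited CXCL8 read lower with the cow in Alexa647 than in Alexa555 in 11 of 11 cows, by −0.63 on average, and CCL5 read higher in 10 of 11, by 0.20. Low-DTH cow 3 widens that mean of CXCL8, since its array 3 of unsettled sign, at 4.46, held the cow in Alexa555. The order of the dyes in this cow depends on that sign too, as arrays 1 and 2 read −3.86 in Alexa647 and −3.61 in Alexa555. Among the 9 cows without an array of unsettled sign, CCL2 read lower on arrays 3 to 5 than on arrays 1 and 2 in 9 of 9 cows (median −0.10) and CXCL8 in 8 of 9 (median −0.42), while CCL5 read higher in 8 of 9 (median 0.34). What the array number stands for is not stated in the labels. Every cow had arrays of both dyes and of both sets. As deposited the DTH difference of CCL3 was 1.51 with Alexa647 alone and 0.58 with Alexa555 alone, while that of CXCL8 was 1.66 and 0.42. The Alexa555 values include array 3 of low-DTH cow 3, of unsettled sign. It read 1.70 for CCL3 and 4.46 for CXCL8, against −3.01 and −3.61 on array 2 in the same dye. The part of the dye in these gaps was not tested. Each cow value weights both dyes equally. In a fit of single arrays with array number as a term, the DTH difference was 0.87 ± 0.35 for CCL3 (limma adjusted p = 0.195) and 0.77 ± 0.62 for CXCL8 (limma adjusted p = 0.662).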

How the data were processed

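The authors deposited a log ratio for each spot on each array, taken here to be log2 of cow over standard. Base, direction, scanner, background correction and normalization were not given in the sources used here, and no intensities were analysed, so signal over background is unknown and precision is limited by the number of arrays and cows. Per the labels' protocols, dyes were swapped within each cow. Arrays of a cow with opposite dyes had a mean r of 0.37 (44 pairs), and swapped arrays were therefore treated as turned by the authors. Array medians lay between −0.08 and 0.07. The vapA control spots, a bacterial sequence, averaged 0.03 ± 0.09 (SD, n = 11 cows).

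Spots with 1 symbol (1224 of 1680) were averaged per gene, and the 440 with no symbol and the 16 with several were tested singly. Arrays, being technical replicates, were averaged within each dye and then over the dyes to 1 value per cow. Groups were compared with limma 3.58.1 in R 4.3.3 (lmFit, eBayes) over all features, with Benjamini-Hochberg adjustment at 0.05, after testing on simulated data. P-values measure the spread between cows, except in the fit of single arrays, where the spread between arrays of a cow enters too. The named genes were the 7 ligands, for each the 3 genes of highest r, and listed receptors and inducers by counts or where groups did not overlap. Receptors of ligands with wide differences were named after their values were seen. The members, lists and tests were chosen with earlier results of these data known. Alternatives were sign and use of 3 arrays, quantile normalization, dye, array set, spot median, single clones, blocks and leaving out each cow.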

Additional observations from a re-analysis of the deposited data

Results flagged for a closer look

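In CCL8, high-Ab cow 2 stood apart from the other high cows. Its log2 ratio of −0.45 was the lowest of the 5 cows, whose other 4 lay between −0.33 and −0.32, a gap wider than Dixon's 95% critical value for a group of that size. The single arrays of this cow read −0.25, −0.52, −0.17 and −0.85. The rule was applied to 14 groups, the 5 high and the 6 low cows for each of the 7 genes, and chance alone marks about 1 in 20 groups.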

How the results depend on the processing

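No alternative brought any of the 7 genes past the threshold. CCL3 kept its sign under each alternative in the Ab comparison, between the low groups, between the high groups and in the difference of the effects, and CXCL8 in the Ab comparison and between the high groups. Of the comparisons in which alternatives were run for them (Ab, DTH, low groups, effect difference), CCL2 kept its sign in all but the Ab and CCL20 in all but the DTH comparison. The cause of the reversals was not tested. In the lists that follow, effect difference means Ab effect minus DTH effect.

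With the 3 arrays turned CCL8 came to 0.0028 (Ab) and 0.0063 (DTH) and CCL5 to −0.072 in the effect difference. With them left out CCL8 came to 0.0023 (Ab) and 0.017 (effect difference) and CCL5 to −0.11 (effect difference). Quantile normalization gave 0.0035 for CCL2 and 0.046 for CCL5 (Ab) and 0.0019 for CCL8 (low groups). Alexa647 alone gave 0.071 for CCL5 (Ab) and 0.077 for CCL8 (low groups). Alexa555 alone gave 0.052 for CCL2 (Ab), 0.042 for CCL5 (DTH), −0.14 for CCL5 and 0.024 for CCL8 (effect difference), and −0.084 for CCL3 and −0.16 for CXCL8 (all cows). Arrays 1 and 2 alone gave 0.077 for CCL2, 0.23 for CCL5 and 0.0051 for XCL1 (Ab), 0.023 for CCL8 (DTH), 0.14 for XCL1 (effect difference), and 0.11 for CCL8 and −0.14 for XCL1 (low groups). Arrays 3 to 5 alone gave −0.18 for CCL3, −0.082 for CCL20, −1.08 for CXCL8, 0.10 for CCL5 and 0.053 for XCL1 (DTH), −0.35 for CCL5, 0.27 for CXCL8 and 0.33 for CCL8 (effect difference), −0.84 for CXCL8 (low groups), and −0.52 for CCL3 and −0.93 for CXCL8 (all cows). The median over spots gave 0.020 for CCL5 (Ab) and 0.00037 for CCL8 (low groups). Single clones gave 0.12 for the second of CCL2 (Ab), 0.027 for the first of CCL8 (effect difference) and 0.015 for the second of CCL8 (low groups).

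The following 2 alternatives were chosen after seeing the data. Arrays 3 to 5 with the array of low-DTH cow 3 turned gave 0.029 for CCL8 and 0.092 for XCL1 (DTH) and 0.072 for CCL8 (low groups). The 3 arrays turned and low-DTH cow 3 left out gave 0.0028 for CCL8 (Ab), −0.11 for CCL5 and 0.039 for CCL8 (effect difference), and −0.10 for CCL3 and −0.23 for CXCL8 (all cows).

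Leaving out each cow in turn, the values that crossed 0 ranged from −0.075 to 0.038 for CCL2, −0.22 to 0.26 for CCL5 and −0.21 to 0.013 for CCL8 in the Ab comparison, and from −0.13 to 0.080 for CCL5 in the DTH comparison. They ranged from −0.17 to 0.31 for CCL5 and −0.13 to 0.10 for CCL8 in the effect difference, from −0.0041 to 0.48 for CCL5 and −0.14 to 0.087 for CCL8 between the low groups, and from −0.10 to 0.35 for CCL3 and −0.16 to 0.48 for CXCL8 over all cows. CXCL8 over all cows was below 0 without high-DTH cow 2 (−0.16) and without low-DTH cow 3 (−0.092), and CCL3 without the latter (−0.10).

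Called features numbered 7 in the effect difference, and 0 with the 3 arrays turned or left out, quantile normalization, either dye, either array set or the added alternatives, and 0 to 7 without single cows. Between the low groups they numbered 3, and 0 with quantile normalization, Alexa555, either array set or the arrays turned without low-DTH cow 3, 1 with the arrays turned, left out, Alexa647 or arrays 3 to 5 turned, and 0 to 4 without single cows. They were 0 in the other comparisons, and 0 to 1 without single cows in the Ab comparison and between the high groups.

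Whether cow numbers pair the cows is not settled. Deviations of cows with the same number had r of −0.51 to −0.13, against a mean of 0.12 (Ab) and 0.17 (DTH) for other numbers. With 3 cows a group, and arrays of unsettled sign in 2 of the cows, such values cannot exclude a pairing. With the cow number as a replicate block CCL3 differed by 1.05 in the DTH comparison (adjusted p = 0.629 by limma). A fit of single arrays with the cow as a replicate block and array number as a term called 14 features (Ab), 2 (DTH), 15 (effect difference), 1 (low groups), 21 (high groups) and 9 (all cows), none of them a chemokine gene. The correlation of arrays within a cow was estimated at 0.14 for the fit by group. Arrays of a cow thus counted largely as separate samples, and these calls do not rest on the spread between cows alone.

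With 3 cows a group and 2 of the cows partly of unsettled sign, none of the differences of the 7 genes was distinguishable from 0 after adjustment, which does not show that they were absent.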
